A study of Mus musculus with 32 samples.

Results

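Described here are 10 genes that control passage through the G1 phase of the cell cycle, over the 8 groups of mouse embryonic stem cells of this series. They are the D-type cyclins Ccnd1, Ccnd2 and Ccnd3, the E-type cyclins Ccne1 and Ccne2, the CIP/KIP inhibitors Cdkn1a and Cdkn1b, and the INK4 genes Cdkn2a, Cdkn2b and Cdkn2c. The genes were listed by symbol and matched to Ensembl identifiers, and 10 of 10 were found among the 31053 genes of the count tables. All 10 were among the 15280 genes tested, although Cdkn2b and Cdkn2c passed the filter at levels close to the limit of counting.

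All groups derive from one line, C1, a β-catenin-/- embryonic stem cell line into which lentiviral constructs brought a constitutively active β-catenin fused to mCherry and to a destabilizing domain. Doxycycline (dox), acting on the EF1a-driven transactivator rtTA and the TRE3G promoter, turns the fusion gene on, and trimethoprim (TMP) stabilizes the protein. Cells were grown for 3 passages in 2i/L, whereas the GEO labels describe serum with LIF and list for every sample a starvation step in trypsin and PBS, and all received 10 μM TMP for 48 h before sorting. By the paper's methods 2i/L holds LIF with inhibitors of GSK3 and MEK, and the differentiation medium had none of them. C1 cells received no dox, whereas C1M and C1H cells were sorted for middle and high mCherry after 100 ng/mL dox in the same 48 h. These 3 groups were collected in pluripotent culture (day 0). The other 5 groups were collected after 4 days of differentiation in NDiff227, C1T with TMP at 10 μM and no dox, C1MV and C1HV after withdrawal of both inducers, and C1MDT and C1HDT with dox at 100 ng/mL and TMP at 10 μM throughout. Groups called induced below are those given dox before sorting. Among them C1MV and C1HV had no inducer during the 4 days. Each group has 4 libraries that the labels call biological replicates, and the study describes the samples of a group as coming from one experiment, so p-values measure the spread between these libraries, which may be technical.

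Library totals on genes ran from 1366951 to 3648787 reads, so that a floor of 3 counts stood for 0.822 to 2.19 CPM (counts scaled to library size). Levels below are CPM scaled by edgeR's TMM factors, and the floor covers counting error only. Reads come from the 3′ end of each transcript (QuantSeq), so counts were not divided by length. Ctnnb1 (β-catenin) rose from 7.81 CPM in C1 to 41.2 in C1H (log2 fold change 2.37, SE 0.21, adjusted p = 6.48e-20), and it was at 12.3 CPM in C1M (adjusted p = 0.0553 against C1). At day 4 it was above C1T in C1MDT (1.57 on the log2 scale) and C1HDT (1.62), and neither withdrawn group passed the test. Since the deletion covers the coding sequence, 3′ tags outside it check the knockout only in part. In bulk libraries, fewer cells of a type and less RNA per cell cannot be told apart.

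D-type cyclins bind the kinases CDK4 and CDK6, and E-type cyclins bind CDK2. The complexes phosphorylate the retinoblastoma protein and its relatives, which releases E2F factors and starts the transcription of S-phase genes. CIP/KIP proteins (Cdkn1a encodes p21, Cdkn1b encodes p27) bind cyclin-CDK complexes, and INK4 proteins bind CDK4 and CDK6 directly. Mouse embryonic stem cells are known for a short G1 phase with low levels of D-type cyclins, and they lengthen it as they leave pluripotency. Ccnd1 is a textbook target of β-catenin with TCF/LEF factors, and Cdkn1a is a textbook target of p53.

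RefSeq promoter windows (GRCm38.p6) matched 7 of the 10 genes, with none for Ccnd1, Ccnd2 and Ccne2. The 250 bases before the start site are shown for 3 of the 7. Cdkn1a is shown as a textbook p53 target with 2 listed start sites, Cdkn2a because its 2 start sites give different proteins that the 3′ counts do not separate, and Ccne1 because it carries the largest number of GC boxes among the windows and rose during differentiation. Capitals mark matches, on either strand, to the GC box (GGGCGG), the E2F site TTTCCCGC and the p53 decamer consensus.
Cdkn1a, first start site (chr17:29090729-29090978, plus strand): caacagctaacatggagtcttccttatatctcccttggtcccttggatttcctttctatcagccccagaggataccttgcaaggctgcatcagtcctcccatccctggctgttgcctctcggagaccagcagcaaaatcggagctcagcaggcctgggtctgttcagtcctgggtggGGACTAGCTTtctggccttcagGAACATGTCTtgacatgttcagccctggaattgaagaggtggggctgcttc
Cdkn1a, second start site (chr17:29093519-29093768, plus strand): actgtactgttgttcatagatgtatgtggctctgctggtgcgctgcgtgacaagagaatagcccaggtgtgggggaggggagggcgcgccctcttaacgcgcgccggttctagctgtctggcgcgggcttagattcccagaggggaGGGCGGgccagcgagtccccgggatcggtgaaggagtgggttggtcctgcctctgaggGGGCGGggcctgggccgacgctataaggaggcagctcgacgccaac
Cdkn2a, first start site, which gives the p19Arf transcript (chr4:89294620-89294869, minus strand): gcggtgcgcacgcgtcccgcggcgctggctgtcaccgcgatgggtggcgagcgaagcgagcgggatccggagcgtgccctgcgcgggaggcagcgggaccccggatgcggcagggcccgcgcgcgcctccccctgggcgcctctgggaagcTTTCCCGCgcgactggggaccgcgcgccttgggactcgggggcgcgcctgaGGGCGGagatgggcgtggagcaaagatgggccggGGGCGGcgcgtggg
Cdkn2a, second start site, which gives the p16Ink4a transcript (chr4:89282193-89282442, minus strand): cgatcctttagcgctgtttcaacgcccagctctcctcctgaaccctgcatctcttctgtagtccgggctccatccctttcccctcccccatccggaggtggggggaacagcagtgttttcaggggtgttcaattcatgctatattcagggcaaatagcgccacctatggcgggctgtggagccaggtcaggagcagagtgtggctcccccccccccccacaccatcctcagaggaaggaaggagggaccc
Ccne1 (chr7:38107491-38107740, minus strand): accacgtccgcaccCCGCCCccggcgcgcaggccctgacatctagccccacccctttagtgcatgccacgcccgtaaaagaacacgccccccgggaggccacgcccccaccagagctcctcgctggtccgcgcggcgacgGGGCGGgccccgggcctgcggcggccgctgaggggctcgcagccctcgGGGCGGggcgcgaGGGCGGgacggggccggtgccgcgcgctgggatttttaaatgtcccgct
The first Cdkn1a window holds 2 p53 decamers, at bases -73 to -64 and -51 to -42 from the start site, and 7.13% of all 32851 promoter windows hold at least 1. A single E2F site stands at -99 to -92 in the p19Arf window, and 0.895% of all windows hold that site. Ccne1 holds 4 GC boxes, a motif present in 32.7% of all windows. The TCF/LEF core CTTTGAT, found in 3.21% of all windows, was in none of the windows of these 7 genes, and neither were the E2F site TTTGGCGC (0.417%), the E-box CACGTG (6.02%) and the STAT site TTCNNNGAA (7.02%). Ccnd1, Ccnd2 and Ccne2 had no window, so none of these motifs was looked for in their promoters. CCAAT (33.8%) was found in the windows of Cdkn1b and of the second Ccnd3 start site, and none of the windows printed here holds it. No motif overlapped another in the printed windows.

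**Figure D1:**
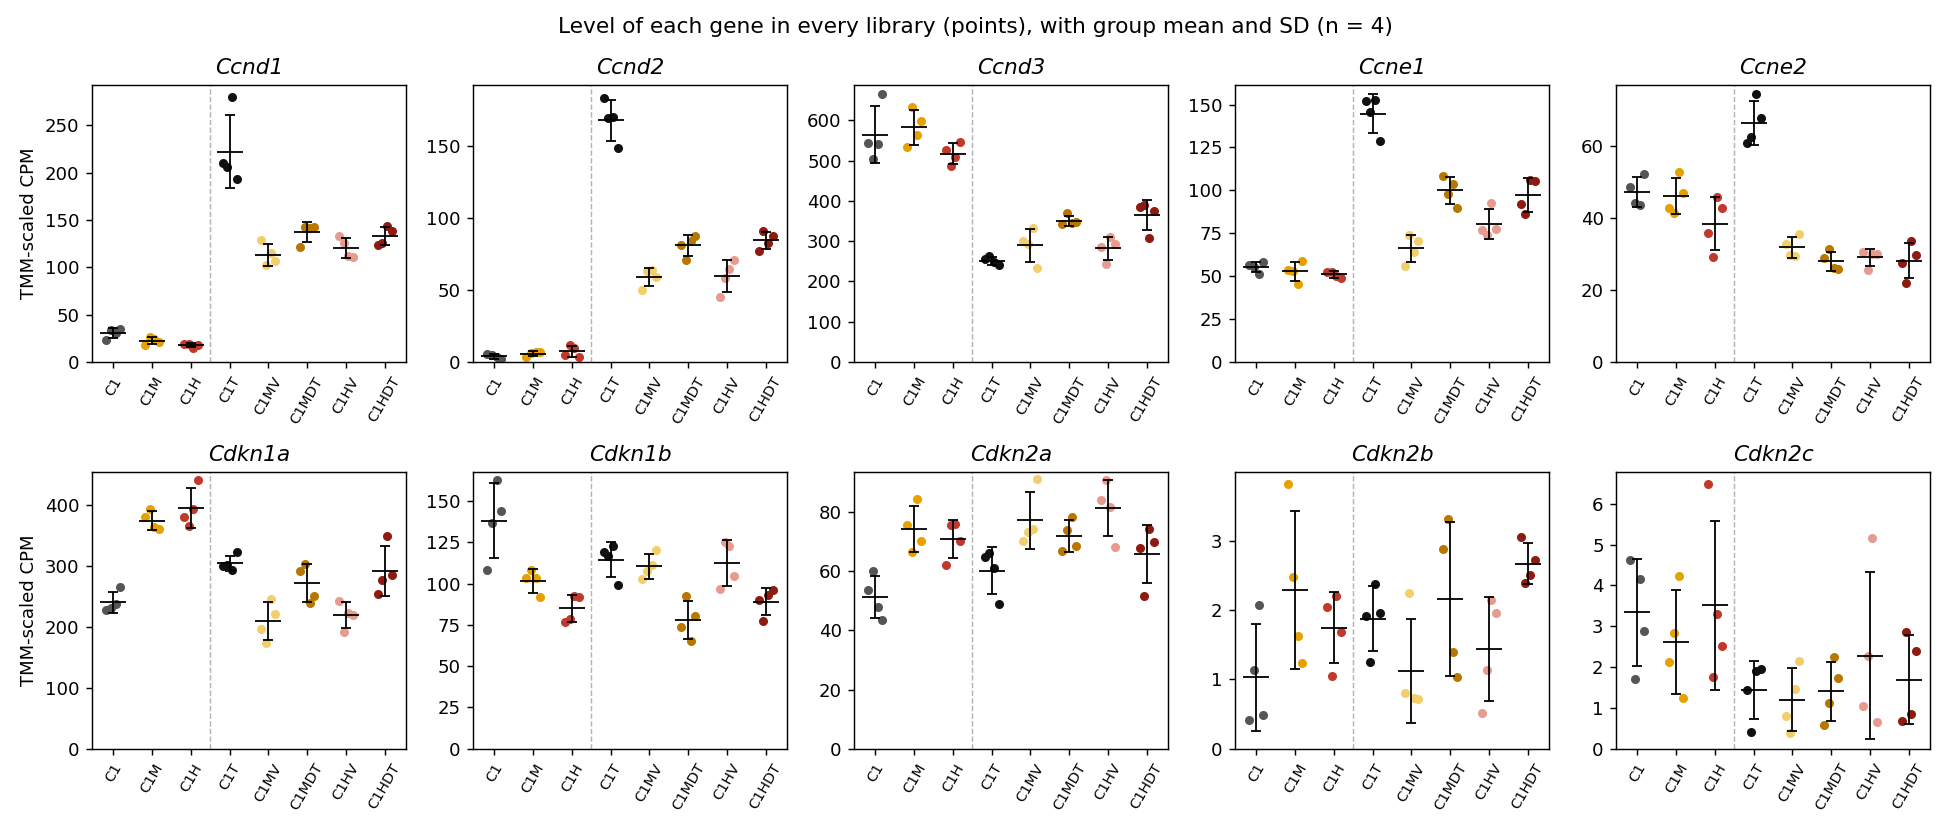
Level of the 10 genes in every library, in TMM-scaled CPM from 0 on the vertical axis, with the groups along the horizontal axis and day 0 left of the dashed line. Points are libraries and bars give the group mean and SD (n = 4), and for Ccnd1, Ccnd2, Ccne1 and Ccne2 the C1T libraries stand above all other libraries.

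In pluripotent culture the question was what differed between the sorted fractions and C1 before differentiation. These fractions differ from C1 in dox and in the mCherry gate as well as in the fusion, and the 3 cannot be told apart. Cdkn1a and Cdkn2a were upregulated and Ccnd1 and Cdkn1b downregulated in both sorted fractions against C1, and Ccnd2 was upregulated in C1H. For C1M vs C1 this made 4 of 10 genes past the threshold (adjusted p under 0.05), 2 higher and 2 lower, where 26.3% of all tested genes passed, 14.3% higher and 12% lower. For C1H vs C1 it made 5 of 10, 3 higher and 2 lower, against 25.9% of all genes, 13.8% higher and 12.1% lower. With library sizes in place of TMM factors, the share of all calls that were higher went from 54.3% to 64.6% in C1M vs C1 and from 53.3% to 66.5% in C1H vs C1. The naive pluripotency markers also differed here, their 8 levels summing to 5392 to 5519 CPM in C1, 3971 to 4152 in C1M and 4059 to 4296 in C1H, and so did other marker lists. The 3 general pluripotency markers summed to 900.2 to 979 CPM in C1, 797 to 898 in C1M and 772 to 828 in C1H. The 5 primed pluripotency markers summed to 125 to 160.3, 173 to 189.8 and 129.9 to 151 CPM, so that C1M lay above C1 and C1H overlapped it. The 5 fibroblast markers summed to 6.72 to 8.63 CPM in C1, 12.8 to 16.6 in C1M and 12.6 to 16.1 in C1H, with Postn at 0 in all libraries of each group. The 4 mesoderm markers summed to 40.2 to 44.6, 24.5 to 33.02 and 30.4 to 37.7 CPM, with T (brachyury) at 0 in all C1 libraries. The part of these markers in the changes was not tested. Between the fractions, C1H vs C1M, 0 of 10 passed in edgeR and 0 in DESeq2, where 1.77% of all genes passed in edgeR. An unadjusted p under 0.05 in edgeR was found for 4 of the 10, and for 1914 of all 15280 genes.

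From C1 to C1T, without induction, 5 of the 10 genes rose, and Ccnd2 had the largest single change. All day 4 groups had also left LIF and the GSK3 and MEK inhibitors of 2i/L. This cannot be told apart from differentiation in any comparison of day 4 with day 0. Ccnd1, Ccnd2, Ccne1, Ccne2 and Cdkn1a rose and Ccnd3 and Cdkn1b fell, 7 of 10 genes, 5 higher and 2 lower, where 49.3% of all genes passed (24.4% higher, 24.9% lower). The median log2 fold change of the 10 genes was 0.41, against 0.01 over all tested genes. Marker levels moved with these changes, the 8 naive pluripotency markers from 5392 to 5519 CPM in sum in C1 to 398 to 519.7 in C1T, the 5 primed markers from 125 to 160.3 to 1360.5 to 1663 and the 6 neural markers from 44.7 to 52.9 to 177 to 214. The 4 mesoderm markers summed to 40.2 to 44.6 CPM in C1 and 17.0 to 23.5 in C1T. Of 6 endoderm markers 1 was called higher and 2 lower. The part of these markers was not tested.

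The induced fractions kept part of this pattern. Ccnd1, Ccnd2 and Ccne1 rose and Ccnd3 fell from day 0 to day 4 in all 4 comparisons, whereas Ccne2 and Cdkn1a, which rose in C1T, fell in all 4. The counts were 6 of 10 in C1MV vs C1M (3 higher, 3 lower; all genes 45.9%, 22% higher and 23.9% lower) and 7 of 10 in C1MDT vs C1M (3 higher, 4 lower; all genes 52.4%, 24.5% and 27.9%). They were 7 of 10 in C1HV vs C1H (4 higher, 3 lower; all genes 47%, 22% and 25.1%) and 6 of 10 in C1HDT vs C1H (3 higher, 3 lower; all genes 55.7%, 26.3% and 29.4%). Cdkn1b was the gene that set them apart, higher in C1HV, lower in C1MDT and not called in the others. Markers moved in the same 4 comparisons. All 6 endoderm markers rose (median log2 fold changes of 2.91, 3.48, 3.45 and 3.78 in C1MV, C1MDT, C1HV and C1HDT), from sums of 49.7 to 62.6 CPM in C1M and 47.5 to 59.7 in C1H. In the same order all 5 primed pluripotency markers rose (3.43, 4.13, 3.48 and 4.18) and all 8 naive markers fell (-2.26, -3.62, -2.35 and -3.50). Of the 6 neural markers 3 rose and 1 fell in C1MV and in C1HV, 3 rose in C1MDT and 4 in C1HDT, and the part of these markers in the changes was not tested.

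The change over 4 days was then compared with that of C1T by an interaction term. Ccnd2, Ccne1, Ccne2 and Cdkn1a differed in all 4 tests, each in the negative direction. In total 6 of 10 genes differed for C1MV (all genes 22.5%), 5 for C1MDT (24.4%), 6 for C1HV (21.9%) and 5 for C1HDT (25.2%). These tests share the C1 and C1T libraries.

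Within day 4, Ccnd1, Ccnd2, Ccne1 and Ccne2 were lower than C1T in all 4 induced groups. For C1MV vs C1T 7 of 10 genes passed, 2 higher and 5 lower (all genes 30.2%, 15.3% higher and 14.9% lower), and for C1MDT vs C1T 6 passed, 1 higher and 5 lower (all genes 33.4%, 16.9% and 16.5%). In C1HV vs C1T the count was 6, 1 higher and 5 lower (all genes 28%, 13.7% and 14.3%), and in C1HDT vs C1T it was 6, again 1 higher and 5 lower (all genes 33.5%, 17.4% and 16.1%). The share of all calls that were higher in C1HV vs C1T went from 48.9% to 59.4% with library sizes only. These 4 comparisons share the C1T libraries. C1T kept TMP, so the withdrawn groups differ from it in TMP, earlier dox and sorting, and the constantly induced groups in dox and sorting. These cannot be told apart from the fusion. Endoderm markers moved with them. All 6 of the list were higher in each of the 4 groups, and their summed level was 34.6 to 49.97 CPM in C1T, 542 to 839 in C1MV, 637 to 712 in C1HV, 887 to 951 in C1MDT and 781 to 988 in C1HDT, with no marker at 0 in all libraries of a group. The 8 naive pluripotency markers summed to 398 to 519.7 CPM in C1T, 790.4 to 967 in C1MV, 696 to 837 in C1HV, 295 to 366 in C1MDT and 280.3 to 384 in C1HDT. The 5 primed pluripotency markers summed to 1360.5 to 1663 CPM in C1T, 681 to 759 in C1MV, 733 to 770.5 in C1HV, 1057 to 1203 in C1MDT and 1111 to 1219 in C1HDT. Of these 5, 4 were lower than C1T in each withdrawn group, and 4 were higher with constant induction than after withdrawal in each fraction. The 6 neural markers summed to 177 to 214 CPM in C1T, 217 to 261 in C1MV, 211 to 244 in C1HV, 278 to 285 in C1MDT and 239.8 to 284 in C1HDT, so that C1HV alone overlapped C1T. The part of these markers in the levels of the G1 genes was not tested.

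With constant induction Ccnd2, Ccnd3 and Cdkn1a were higher and Cdkn1b was lower than after withdrawal, in both fractions. Dox and TMP during differentiation differ here together with the fusion, and they cannot be told apart. In C1MDT vs C1MV 6 of 10 genes passed, 5 higher and 1 lower (all genes 12.6%, 6.64% higher and 5.95% lower). In C1HDT vs C1HV 4 passed, 3 higher and 1 lower (all genes 16%, 9.10% and 6.88%), and library sizes moved the share of all calls that were higher from 56.9% to 45.2%. The difference between the fractions was tested itself, and 0 of 10 genes passed in edgeR and 0 in DESeq2 (all genes 0% called in edgeR). An unadjusted p under 0.05 in edgeR was found for 1 of the 10, and for 1284 of all 15280 genes.

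The sorted fraction itself left no call at day 4. In C1HV vs C1MV 0 of 10 genes passed in edgeR and 0 in DESeq2, where 0.00654% of all genes passed in edgeR. There 1 of the 10 had an unadjusted p under 0.05 in edgeR, as had 1150 of all 15280 genes. In C1HDT vs C1MDT 0 passed in both tools, where 0% of all genes passed. There 0 of the 10 had an unadjusted p under 0.05 in edgeR, and 814 of all 15280 genes had one. A missed threshold does not show equal levels, and the approximate 95% intervals of the log2 fold change in C1HDT vs C1MDT were -0.24 to 0.13 for Ccnd1, -0.17 to 0.28 for Ccnd2 and -0.05 to 0.27 for Cdkn1a. In C1HV vs C1MV they were -0.11 to 0.28, -0.25 to 0.27 and -0.10 to 0.24.

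**Figure D2:**
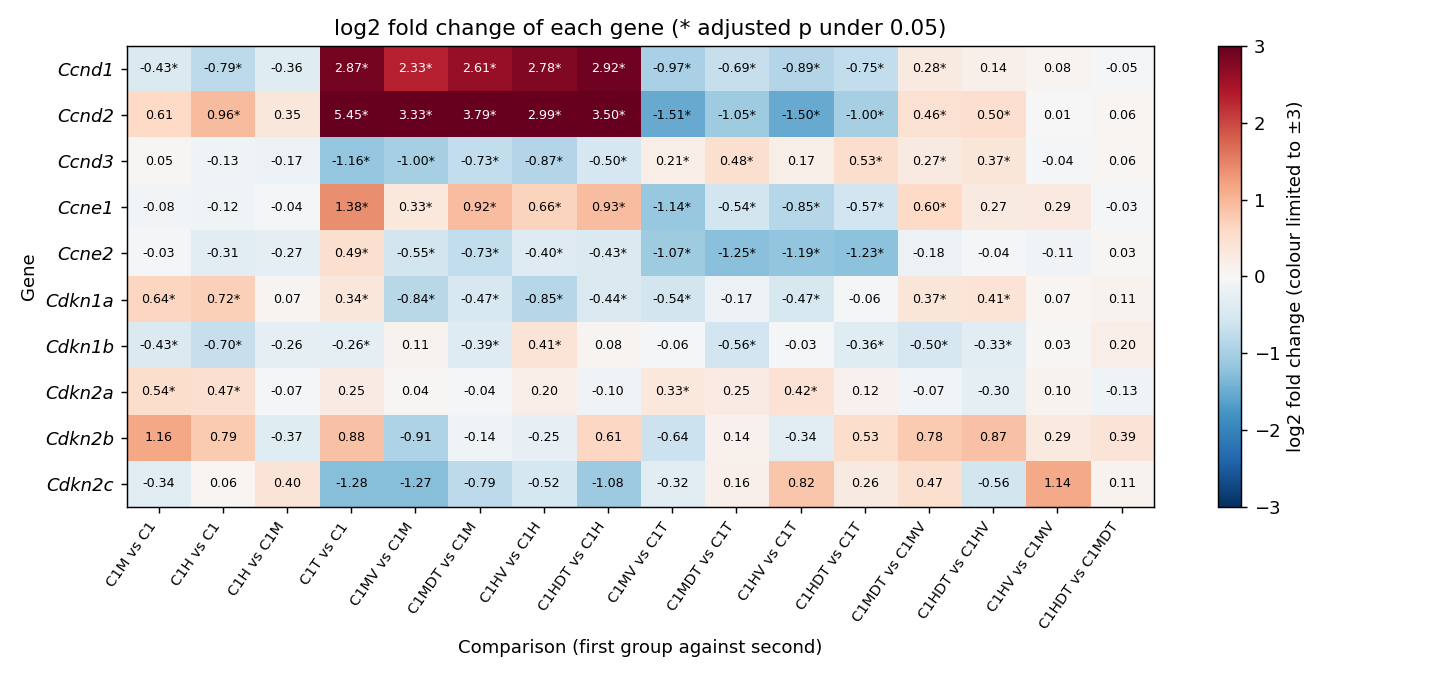
Fitted log2 fold change of each gene (rows) in the 16 comparisons between groups (columns), with an asterisk where the adjusted p was under 0.05 and colour limited to ±3. Ccnd1 and Ccnd2 are positive in the 5 comparisons of day 4 with day 0 and negative in the 4 comparisons with C1T, and the last 2 columns, high against middle fraction at day 4, hold no asterisk.

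Ccnd1 (chr7:144929931-144939925, minus strand, GRCm38, as are the gene positions below) encodes cyclin D1. Its levels were 23.5, 33.97, 30.6 and 34.5 CPM in the C1 libraries, 17.4, 26.3, 24.1 and 21.5 in C1M and 18.7, 18.8, 14.3 and 18.1 in C1H. The C1H libraries lay below all C1 libraries, and C1M overlapped both. The decrease was log2 fold change -0.79, SE 0.16, adjusted p = 2.15e-05 for C1H vs C1, and log2 fold change -0.43, SE 0.15, adjusted p = 0.0231 for C1M vs C1. The C1M call was lost with library sizes only (adjusted p = 0.0559) and without C1 replicate 2, C1 replicate 4 or C1M replicate 1 (log2 fold change -0.40 to -0.34, adjusted p 0.0616 to 0.112). At day 4 the C1T libraries were at 209.7, 206, 279 and 193 CPM, which is 7.32-fold the C1 level (log2 fold change 2.87, SE 0.12, adjusted p = 3.63e-52). Withdrawn cells were at 129, 102, 115 and 106 CPM in C1MV and 133, 126, 111 and 111 in C1HV, and constantly induced cells at 122, 142, 141 and 143 in C1MDT and 123, 126, 144 and 138 in C1HDT. Every library of these 4 groups was below every C1T library and above every day 0 library. Against C1T the log2 fold changes were -0.97 (C1MV), -0.89 (C1HV), -0.69 (C1MDT) and -0.75 (C1HDT), with adjusted p from 5.02e-17 to 1.32e-10. The rise from day 0 was 2.78 in C1HV and 2.92 in C1HDT on the log2 scale, and of the 4 interaction tests with C1T only that of C1MV passed (-0.54, SE 0.18, adjusted p = 0.0171). That call was lost without C1 replicate 1, C1M replicate 2 or C1T replicate 3 (log2 fold change -0.46 to -0.39, adjusted p 0.0769 to 0.133). C1MDT was above C1MV (log2 fold change 0.28, SE 0.10, adjusted p = 0.0379), which did not hold without C1MV replicate 2, C1MV replicate 3, C1MV replicate 4, C1MDT replicate 2, C1MDT replicate 3 or C1MDT replicate 4 (log2 fold change 0.23 to 0.29, adjusted p 0.0652 to 0.152), nor with library sizes only (adjusted p = 0.0510) or in DESeq2 (adjusted p = 0.0588). C1HDT vs C1HV gave log2 fold change 0.14, SE 0.10, adjusted p = 0.37. In order of level, C1T stood first and apart, the 4 induced day 4 groups overlapped their neighbours, and the 3 day 0 groups came last, each overlapping the next.

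Ccnd2 (chr6:127125162-127152193, minus strand) encodes cyclin D2 and had the largest change of the 10 genes. It was barely counted at day 0, at 5.46, 4.53, 3.11 and 1.92 CPM in C1, 3.40, 6.03, 6.85 and 6.60 in C1M and 4.43, 11.5, 9.89 and 3.36 in C1H, or 4 to 33 counts per library. The C1H value was above C1 (log2 fold change 0.96, SE 0.32, adjusted p = 0.0164), with overlapping libraries and a wide spread within C1H. The call was lost without C1 replicate 3, C1 replicate 4, C1H replicate 2 or C1H replicate 3 (log2 fold change 0.64 to 0.88, adjusted p 0.051 to 0.173). At day 4 C1T reached 183, 169, 170.2 and 149 CPM, 43.8-fold the C1 level (log2 fold change 5.45, SE 0.19, adjusted p = 1.33e-52). The levels were 49.6, 62.9, 63.97 and 59.2 CPM in C1MV, 44.96, 57.95, 64.5 and 70.9 in C1HV, 81.3, 70.8, 84.1 and 87.4 in C1MDT and 76.9, 90.8, 82.5 and 87.2 in C1HDT. All 16 of these libraries lay between the day 0 and the C1T libraries, and in both fractions the constantly induced libraries lay above the withdrawn ones. Against C1T, Ccnd2 was 2.85-fold lower in C1MV (log2 fold change -1.51, SE 0.12, adjusted p = 3.54e-22), 2.83-fold lower in C1HV, 2.08-fold lower in C1MDT and 2.00-fold lower in C1HDT (adjusted p = 1.49e-13). Ccnd2 was higher with constant induction than after withdrawal by 0.46 on the log2 scale in the middle fraction (adjusted p = 0.00452) and by 0.50 in the high fraction (adjusted p = 0.00155). The rise over 4 days was smaller than in C1T, with a difference in log2 fold change from -1.66 to -2.46 over the 4 groups and adjusted p from 1.46e-09 to 8.55e-05.

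Ccnd3 (chr17:47505051-47599691, plus strand) encodes cyclin D3 and ran the other way. It was at 545, 504, 541 and 666 CPM in C1, 535, 634, 563 and 598 in C1M and 526, 487, 509 and 547 in C1H, and the groups overlapped with no call among them. It fell to 256, 263, 247 and 240.2 CPM in C1T (log2 fold change -1.16, SE 0.08, adjusted p = 7.71e-28). Libraries stood at 300.0, 292, 331 and 234 CPM in C1MV, 284, 243, 309.8 and 293 in C1HV, 341, 369, 345 and 347 in C1MDT and 385, 390.3, 309 and 374 in C1HDT. Both constantly induced groups lay wholly above C1T, by 0.48 (adjusted p = 2.69e-07) and 0.53 (adjusted p = 8.95e-09) on the log2 scale, while the withdrawn groups overlapped it. C1MV vs C1T gave log2 fold change 0.21, SE 0.08, adjusted p = 0.0363, a call lost without C1T replicate 3, C1T replicate 4, C1MV replicate 1, C1MV replicate 2 or C1MV replicate 3 (log2 fold change 0.16 to 0.21, adjusted p 0.0633 to 0.19) and in DESeq2 (adjusted p = 0.0700). For C1HV vs C1T the value was log2 fold change 0.17, SE 0.08, adjusted p = 0.125, and it passed with library sizes only (0.24, adjusted p = 0.0134) and without C1HV replicate 2 (0.23, adjusted p = 0.0314). Constant induction exceeded withdrawal in the middle fraction (log2 fold change 0.27, SE 0.08, adjusted p = 0.0113) and in the high fraction (log2 fold change 0.37, SE 0.08, adjusted p = 0.000187). The middle-fraction call was lost without C1MV replicate 4 (log2 fold change 0.19, adjusted p = 0.113). The fall over 4 days was smaller than in C1T for C1HDT (difference 0.66, SE 0.11, adjusted p = 3.59e-07) and C1MDT (difference 0.43, SE 0.11, adjusted p = 0.00118). For C1HV the difference was 0.29, SE 0.11, adjusted p = 0.0444, and it was lost without C1 replicate 4, C1H replicate 1, C1H replicate 2, C1H replicate 3, C1HV replicate 1 or C1HV replicate 3 (log2 fold change 0.20 to 0.30, adjusted p 0.0525 to 0.205), with the replicate block (adjusted p = 0.0548) and in DESeq2 (adjusted p = 0.0703). Bysl, on the opposite strand, shares 361 bases with the 3′ end of Ccnd3, and whether reads were counted by strand is not given in the sources used here, so reads there may not be told apart. Bysl moved in the other direction from Ccnd3 in C1T vs C1 (0.57 on the log2 scale, adjusted p = 8.77e-07), C1MDT vs C1T (-0.29, adjusted p = 0.0154) and C1MV vs C1T (-0.47, adjusted p = 5.52e-05). In constant induction against withdrawal it moved in the same direction as Ccnd3, with 0.42 in the high fraction (adjusted p = 0.00137) and 0.19 in the middle fraction (adjusted p = 0.233), and its part in the Ccnd3 values was not tested.

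The make-up of D-type cyclin reads changed accordingly, given here as shares of 3′ reads with no test. Ccnd3 gave 92.9 to 96.3% of them in the 12 day 0 libraries. In C1T the shares were 32.3 to 40.1% for Ccnd1, 24.4 to 28.2% for Ccnd2 and 35.5 to 41.3% for Ccnd3. In the 16 induced day 4 libraries Ccnd3 gave 56.9 to 65.8%, Ccnd1 20.8 to 29.5% and Ccnd2 9.73 to 15.4%, so no induced library reached the Ccnd2 share of a C1T library. The sum of the 3 genes was 543 to 703 CPM in C1 and 582 to 697 in C1T, overlapping ranges. It was 556 to 666 CPM in C1M and 517 to 568 in C1H, and among the induced day 4 groups 399.6 to 510.3 (C1MV), 426 to 486 (C1HV), 545 to 582 (C1MDT) and 535 to 607 CPM (C1HDT).

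**Figure D3:**
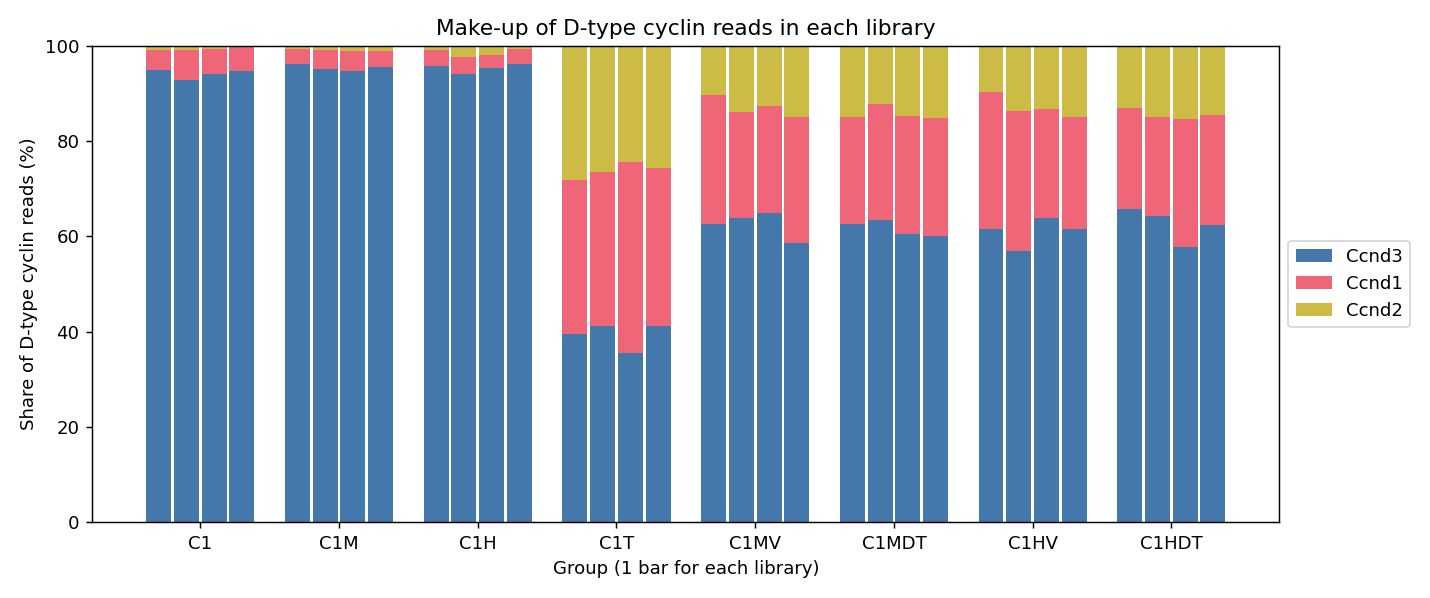
Share of the reads of Ccnd1, Ccnd2 and Ccnd3 in their sum (vertical axis, %), 1 bar for each library in the 8 groups. Ccnd3 fills over 92% of each day 0 bar, 35.5 to 41.3% of the C1T bars and 56.9 to 65.8% of the bars of the induced groups at day 4.

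Ccne1 (chr7:38097984-38107534, minus strand) encodes cyclin E1. Its day 0 levels were 56.7, 55.5, 51.4 and 58.5 CPM in C1, 53.5, 52.9, 45.6 and 59.02 in C1M and 52.5, 52.7, 50.2 and 48.8 in C1H, with overlapping groups and adjusted p of at least 0.475 in the 3 comparisons. In C1T it was at 152, 146, 153 and 129 CPM, 2.61-fold the C1 level (log2 fold change 1.38, SE 0.11, adjusted p = 5.85e-25). The induced groups were at 56.05, 73.8, 64.3 and 70.6 CPM (C1MV), 76.99, 73.9, 92.9 and 77.4 (C1HV), 108, 98.1, 104 and 89.8 (C1MDT) and 91.8, 85.99, 106 and 106 (C1HDT). Each lay wholly below C1T, and C1MV overlapped the day 0 libraries of C1M. Against C1T the log2 fold changes were -1.14, -0.85, -0.54 and -0.57 in that order, with adjusted p of 8.94e-07 or below. The rise of C1MV over C1M (log2 fold change 0.33, SE 0.11, adjusted p = 0.0102) was lost without C1M replicate 3 or C1MV replicate 2 (log2 fold change 0.26, adjusted p 0.0692 to 0.072). Interaction values ran from -1.06 to -0.45, with adjusted p from 8.25e-09 to 0.0161, and that of C1MDT was lost without C1MDT replicate 4 (log2 fold change -0.38, adjusted p = 0.0618). Constant induction exceeded withdrawal in the middle fraction (log2 fold change 0.60, SE 0.10, adjusted p = 2.65e-06), and the value in the high fraction was log2 fold change 0.27, SE 0.10, adjusted p = 0.0564, which passed without C1HV replicate 3 or C1HDT replicate 2 (0.34 and 0.32, adjusted p = 0.0298 and 0.0313). The test of that difference between fractions gave -0.32, SE 0.15, adjusted p = 0.518. C1HV and C1MV libraries did not overlap, without a call (log2 fold change 0.29, SE 0.11, adjusted p = 0.484).

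Ccne2 (chr4:11191351-11204779, plus strand), which encodes cyclin E2, had a pattern of its own. Levels of 48.7, 44.2, 43.6 and 52.3 CPM in C1, 42.9, 41.5, 52.8 and 47.1 in C1M and 35.8, 29.3, 45.8 and 42.9 in C1H overlapped, and C1H vs C1 gave log2 fold change -0.31, SE 0.13, adjusted p = 0.0823. That comparison passed with ComBat-Seq (-0.31, adjusted p = 0.0379) and without C1H replicate 3 (-0.40, adjusted p = 0.0326). It rose to 60.9, 62.5, 74.4 and 67.9 CPM in C1T (log2 fold change 0.49, SE 0.13, adjusted p = 0.000893), with every C1T library above every C1 library. In the induced groups it fell instead, to 32.7, 29.6, 29.4 and 35.7 CPM in C1MV, 30.5, 25.6, 30.1 and 29.9 in C1HV, 28.8, 31.3, 25.97 and 25.8 in C1MDT and 27.6, 21.98, 33.5 and 29.6 in C1HDT. These 4 groups overlapped each other and lay 2.11 to 2.38-fold below C1T (log2 fold changes -1.07 to -1.25, adjusted p of 1.96e-11 or below). From day 0 the fall was log2 fold change -0.73, SE 0.14, adjusted p = 1.77e-06 in C1MDT and log2 fold change -0.55, SE 0.14, adjusted p = 0.000395 in C1MV. From C1H the values were -0.43 in C1HDT (adjusted p = 0.00542) and -0.40 in C1HV (adjusted p = 0.0204). The first of these was lost without C1H replicate 3 (log2 fold change -0.34, adjusted p = 0.0532), the other without C1H replicate 3, C1H replicate 4 or C1HV replicate 2 (log2 fold change -0.34 to -0.30, adjusted p 0.068 to 0.119). All 4 interaction values passed, from -1.22 to -0.88, with adjusted p of 0.000218 or below. Ints8, on the opposite strand, overlaps 5622 bases at the 3′ end of Ccne2, and it was not called in the 5 comparisons of day 4 with day 0 nor in the 4 with C1T (adjusted p of at least 0.0593). Ccne1 made up 46.4 to 64.3% of E-type cyclin reads at day 0, 65.4 to 71.4% in C1T, 63.2 to 75.5% in the withdrawn groups and 75.8 to 79.96% in the constantly induced groups.

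Cdkn1a (chr17:29090976-29100727, plus strand) encodes p21. In pluripotent culture it was at 228, 232, 237 and 265 CPM in C1, 380.4, 393, 364 and 361 in C1M and 379.6, 366, 393 and 441 in C1H. Every library of both induced fractions was above every C1 library, 1.56-fold in C1M (log2 fold change 0.64, SE 0.08, adjusted p = 2.47e-10) and 1.64-fold in C1H (log2 fold change 0.72, SE 0.08, adjusted p = 2.82e-12). At day 4 the order changed. C1T was at 299.9, 301, 294 and 322 CPM, above C1 (log2 fold change 0.34, SE 0.08, adjusted p = 0.000362). The withdrawn groups were at 197, 174, 246 and 220.5 CPM in C1MV and 242, 191, 223 and 219 in C1HV, and the constantly induced groups at 292, 303, 239.6 and 250.2 in C1MDT and 254, 276, 349.8 and 286 in C1HDT. Withdrawn libraries lay below all C1T libraries (log2 fold change -0.54, SE 0.08, adjusted p = 7.02e-08 in C1MV and log2 fold change -0.47, SE 0.09, adjusted p = 3.06e-06 in C1HV), while constantly induced libraries overlapped C1T without a call (log2 fold change -0.17, SE 0.08, adjusted p = 0.107 in C1MDT and log2 fold change -0.06, SE 0.08, adjusted p = 0.607 in C1HDT). Without C1MDT replicate 2 the comparison of C1MDT with C1T passed (-0.23, adjusted p = 0.0352). From day 0 Cdkn1a fell by 0.84 in C1MV, by 0.85 in C1HV, by 0.47 in C1MDT and by 0.44 in C1HDT on the log2 scale. Against the rise in C1T this was a difference of -1.19 to -0.78 over the 4 groups, with adjusted p from 5.57e-15 to 3.21e-08. Constant induction exceeded withdrawal by 0.37 in the middle fraction (adjusted p = 0.000596, overlapping libraries) and 0.41 in the high fraction (adjusted p = 0.000108, no overlap). None of these calls of Cdkn1a was lost when a library was left out.

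Cdkn1b (chr6:134920401-134925513, plus strand) encodes p27 and was lower in the groups with dox than in C1 or C1T. It was at 108, 137, 163 and 144 CPM in C1, 103, 108, 104 and 91.6 in C1M and 77, 78.8, 92.3 and 91.7 in C1H. C1M and C1H lay below all C1 libraries (log2 fold change -0.43, SE 0.10, adjusted p = 0.000224 and log2 fold change -0.70, SE 0.10, adjusted p = 3.75e-09). For C1M the margin was narrow, its highest library at 108.197 CPM and the lowest of C1 at 108.285. C1T, at 119, 117, 123 and 99.2 CPM, overlapped C1, and its decrease (log2 fold change -0.26, SE 0.10, adjusted p = 0.0238) was lost without C1 replicate 3, C1 replicate 4 or C1T replicate 4 (log2 fold change -0.23 to -0.17, adjusted p 0.0655 to 0.192). At day 4 the withdrawn groups, at 103, 107, 112 and 121 CPM in C1MV and 96.6, 125, 123 and 105 in C1HV, overlapped C1T with log2 fold changes of -0.06 and -0.03 that were not called. The constantly induced groups, at 73.8, 92.5, 65.3 and 80.2 CPM in C1MDT and 89.8, 77.4, 93.01 and 96.03 in C1HDT, lay below all C1T libraries (log2 fold change -0.56, SE 0.10, adjusted p = 2.22e-06 and log2 fold change -0.36, SE 0.10, adjusted p = 0.00244). Constant induction against withdrawal gave log2 fold change -0.50, SE 0.10, adjusted p = 9.65e-05 in the middle fraction and log2 fold change -0.33, SE 0.10, adjusted p = 0.0139 in the high fraction, without overlap in either. The call in the high fraction was lost without C1HV replicate 2, C1HV replicate 3 or C1HDT replicate 2 (log2 fold change -0.30 to -0.28, adjusted p 0.061 to 0.0829). Against its own day 0 level it rose in C1HV (log2 fold change 0.41, SE 0.10, adjusted p = 0.000414) and fell in C1MDT (log2 fold change -0.39, SE 0.10, adjusted p = 0.000623). The interaction with the C1T change passed in C1HV (0.67, SE 0.14, adjusted p = 0.00011) and in C1MV (0.37, SE 0.14, adjusted p = 0.044), the latter lost without C1 replicate 3, C1 replicate 4, C1M replicate 1, C1M replicate 3, C1M replicate 4, C1T replicate 4 or C1MV replicate 4 (log2 fold change 0.28 to 0.38, adjusted p 0.0534 to 0.167) and in DESeq2 (adjusted p = 0.0727). In C1HDT it was log2 fold change 0.34, SE 0.14, adjusted p = 0.0708, and it passed with only the groups compared (adjusted p = 0.0472) and without C1 replicate 1, C1T replicate 3 or C1HDT replicate 2 (0.39 to 0.47, adjusted p 0.00903 to 0.0453). Within day 4 Cdkn1a and Cdkn1b moved in opposite directions with constant induction in both fractions, and in pluripotent culture they did so in both C1M and C1H.

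Cdkn2a (chr4:89274471-89294653, minus strand) gives the INK4 protein p16Ink4a and, from another first exon and reading frame, p19Arf, which stabilizes p53 through MDM2. The transcripts share their 3′ exons, so the 3′ counts sum over both. Levels were 53.7, 60.01, 47.8 and 43.6 CPM in C1, 75.6, 66.7, 84.4 and 70.2 in C1M and 62.01, 75.7, 75.8 and 70.2 in C1H, with both induced fractions above all C1 libraries (log2 fold change 0.54, SE 0.12, adjusted p = 0.000121 in C1M and log2 fold change 0.47, SE 0.12, adjusted p = 0.000947 in C1H). At day 4 they were 64.8, 66.2, 61.02 and 48.96 CPM in C1T, 70.2, 73.4, 74.1 and 91.3 in C1MV, 84.2, 90.9, 81.7 and 68.3 in C1HV, 66.9, 74.1, 78.5 and 68.5 in C1MDT and 68.03, 51.6, 74.2 and 69.8 in C1HDT. The withdrawn libraries lay above all C1T libraries (log2 fold change 0.33, SE 0.12, adjusted p = 0.0228 in C1MV and log2 fold change 0.42, SE 0.12, adjusted p = 0.00276 in C1HV), and the C1MV call was lost without C1T replicate 4 or C1MV replicate 4 (log2 fold change 0.25 to 0.27, adjusted p 0.0903 to 0.103). The C1MDT libraries also lay above all C1T libraries (log2 fold change 0.25, SE 0.11, adjusted p = 0.081), and this comparison passed with library sizes only (adjusted p = 0.0379), with ComBat-Seq (adjusted p = 0.0483) and without C1T replicate 2 (adjusted p = 0.0395). None of the 5 comparisons of day 4 with day 0 was called (log2 fold changes -0.10 to 0.25, adjusted p of at least 0.0855). Of these, C1T vs C1 passed without C1T replicate 4 (0.31, adjusted p = 0.0430) and C1HV vs C1H without C1HV replicate 4 (0.30, adjusted p = 0.0313). C1HDT vs C1HV fell just short (log2 fold change -0.30, SE 0.11, adjusted p = 0.054) and passed in 7 of the 8 alternative settings, with log2 fold changes of -0.30 to -0.35. Along the order of levels, from C1HV down to C1, every group overlapped the next.

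Cdkn2b (chr4:89306299-89311039, minus strand, p15Ink4b) and Cdkn2c (chr4:109660876-109667189, minus strand, p18Ink4c) gave 1 to 9 and 1 to 19 counts per library, and each had 14 of 32 libraries at 3 counts or fewer. Group means ran from 1.03 CPM in C1 to 2.67 in C1HDT for Cdkn2b, and from 1.19 in C1MV to 3.51 in C1H for Cdkn2c. Neither was called in any of the 21 comparisons in edgeR, with SE of the log2 fold change from 0.46 to 0.71 between groups. Cdkn2c came close in C1T vs C1 (log2 fold change -1.28, SE 0.59, adjusted p = 0.0605) and gave log2 fold change -1.27, SE 0.60, adjusted p = 0.0721 in C1MV vs C1M and log2 fold change -1.08, SE 0.51, adjusted p = 0.0624 in C1HDT vs C1H. The first passed without C1 replicate 2 (-1.50, adjusted p = 0.0330), the next without C1M replicate 4 (-1.48, adjusted p = 0.0399) or C1MV replicate 4 (-1.55, adjusted p = 0.0443). C1HDT vs C1H passed with library sizes only (-1.15, adjusted p = 0.0453) and without C1H replicate 2 or 4 or C1HDT replicate 2 or 4 (-1.20 to -1.39, adjusted p 0.0289 to 0.04999).

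The other genes of the G1/S machinery were read from a list of 33, of which 32 were tested. Its list-wide median log2 fold change was 0.42 in C1T vs C1 (all genes 0.01), with 19 higher and 4 lower (49.3% of all genes called). Cdk6, a partner of D-type cyclins, stood at 2.08 to 5.75 CPM in C1 and 31.7 to 46.2 in C1T (log2 fold change 3.04, SE 0.24, adjusted p = 2.92e-24), and Cks1b, which helps SCF-Skp2 to mark p27 for degradation, stood at 71.4 to 82.01 CPM in C1 and 263 to 318 in C1T (log2 fold change 1.94, SE 0.09, adjusted p = 5.28e-46). Among 10 E2F and DP factors 7 were higher and 1 lower. E2f8, a repressor of the E2F family, stood at 6.75 to 20.6 CPM in C1 and 30.4 to 50.5 in C1T (log2 fold change 1.41, SE 0.27, adjusted p = 2.9e-05). Cdkn1c, the third CIP/KIP gene (p57), had the largest rise of the list, with 1.92 to 3.96 CPM in C1 and 32.9 to 48.9 in C1T (log2 fold change 3.74, SE 0.26, adjusted p = 1.06e-28).

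In pluripotent culture 8 genes of the list were called in C1M vs C1 (6 higher, 2 lower) and 8 in C1H vs C1 (5 higher, 3 lower), with list medians of 0.16 and 0.04 (all genes 0.06 and 0.04). Counts of 8 of 32 stand near the 26.3% and 25.9% of all genes called. Cdkn1c (1.26 and 1.54) and Cdk6 (1.22 and 1.14) rose most on the log2 scale in both fractions. Cdk1 (0.53 and 0.42) and E2f5 (0.49 and 0.57) were also higher in both, and the kinase gene Cdk4 (-0.33 and -0.47) and the SCF ligase gene Cul1 (-0.37 and -0.45) were lower in both. Ccnh, the cyclin of the CDK-activating kinase, was called in C1M (0.58) and E2f7 in C1H (0.57).

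From day 0 to day 4 the list gave 11 higher and 7 lower in C1MV, 15 and 8 in C1MDT, 15 and 6 in C1HV and 14 and 6 in C1HDT, where 45.9%, 52.4%, 47% and 55.7% of all genes were called. Cks1b rose by 1.24, 1.78, 1.39 and 2.07 in these groups and Cdk6 by 1.45, 1.54, 1.62 and 1.49. In the same order Cdk4 rose by 0.86, 1.11, 0.89 and 1.27 and Cdkn1c by 1.33, 1.11, 1.08 and 0.75. The later cyclins Ccnb1 (0.92, 0.93, 0.95 and 1.09) and Ccna2 (0.76, 0.91, 0.97 and 1.16) rose in all 4 as well. Lower in all 4 were Fbxw7, whose product directs cyclin E for degradation (-0.50, -0.55, -0.57 and -0.88), the activating factor E2f1 (-0.42, -0.44, -0.54 and -0.34) and Ambra1, whose product directs D-type cyclins for degradation (-0.42, -0.47, -0.63 and -0.55).

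Against C1T, 2 genes of the list were higher and 11 lower in C1MV, 5 and 8 in C1MDT, 2 and 10 in C1HV and 8 and 8 in C1HDT, where 30.2%, 33.4%, 28% and 33.5% of all genes were called. Medians were -0.14, -0.10, -0.19 and -0.13, against -0.01 to 0.01 over all genes. E2f2, an activating E2F factor, fell most. It was at 33.3 to 35.9 CPM in C1T, 4.99 to 8.61 in C1MV, 5.86 to 13.1 in C1HV, 6.98 to 13.3 in C1MDT and 7.83 to 13.4 in C1HDT, with log2 fold changes of -1.73 to -2.13. Cdkn1c was lower in all 4 (-1.12 to -1.45). Fbxw7 was also lower in all 4, by log2 fold changes of -0.80, -0.70, -0.85 and -1.005 in C1MV, C1HV, C1MDT and C1HDT. In the same order E2f8 was at -1.33, -0.72, -0.76 and -0.89 and E2f6 at -1.11, -0.60, -0.79 and -0.79, each called lower in all 4. Ccnb2 was higher in all 4 (0.41, 0.48, 0.66 and 0.71), and Skp2 (0.48 and 0.51), Cdk4 (0.37 and 0.39) and E2f5 (0.49 and 0.53) were higher in C1MDT and C1HDT.

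Under constant induction against withdrawal 5 genes of the list differed in the middle fraction and 6 in the high fraction, of 32, where 12.6% and 16% of all genes were called. Cks1b was higher in both (log2 fold change 0.55, SE 0.08, adjusted p = 8.53e-09 and log2 fold change 0.69, SE 0.08, adjusted p = 1.34e-12), as was Cdk4 (0.26 and 0.38), and Mnat1, a subunit of the CDK-activating kinase, was lower in both (-0.41 and -0.52). The others were Cul1 (0.33) and Cdc25a (0.32) in the middle fraction, and Skp2 (0.50), E2f4 (0.41) and Fbxw7 (-0.31) in the high fraction.

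A list of 14 p53 genes (Trp53, Mdm2 and textbook targets other than Cdkn1a) was set beside Cdkn1a, and all 14 were tested. In C1T vs C1 11 were higher and 1 lower (median 0.69, all genes 0.01, of which 49.3% were called), led by Bbc3 (log2 fold change 2.25, SE 0.21, adjusted p = 1.44e-19), which encodes the cell death protein PUMA, Eda2r (1.63), Zmat3 (1.33) and Sesn2 (1.13), and the one that fell was Trp53 itself (-0.49). In pluripotent culture, where Cdkn1a rose in both fractions, 2 genes were called in C1M, Btg2 higher (0.43) and Trp53inp1 lower (-0.37), and 6 in C1H, against 26.3% and 25.9% of all genes. Those of C1H were Btg2 (0.79), Bbc3 (0.76), Mdm2 (0.47) and Phlda3 (0.32), which rose, and Bax (-0.45) and Gdf15 (-0.50), which fell. Eda2r alone differed between C1H and C1M (0.77).

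From day 0 to day 4, where Cdkn1a fell in the induced fractions, 8 of the 14 p53 genes rose and 3 fell in C1MV, 9 and 2 in C1MDT, 8 and 4 in C1HV and 10 and 1 in C1HDT (all genes 45.9%, 52.4%, 47% and 55.7%). Bbc3 rose by 2.32, 2.66, 1.48 and 2.09 in these groups, and Zmat3 by 0.95, 1.34, 0.83 and 1.19. Trp53 fell in all 4 (-0.59, -0.67, -0.60 and -0.95). Against C1T, where Cdkn1a was lower in the withdrawn groups, 7 of the 14 were lower in C1MV and 9 in C1HV, among them Mdm2 (-0.66 and -0.58), Trp53inp1 (-0.74 and -0.50) and Gdf15 (-0.67 and -0.65), while C1MDT and C1HDT each had 3 higher and 5 lower (all genes 30.2%, 28%, 33.4% and 33.5%). Mdm2, Trp53inp1 and Gdf15 were among the lower genes there too, and Trp53 was lower in all 4, by log2 fold changes of -0.35, -0.34, -0.44 and -0.69 in C1MV, C1HV, C1MDT and C1HDT. The 3 higher genes were Bbc3 (0.59 and 0.59), Btg2 (0.48 and 0.48) and Phlda3 (0.39 and 0.45), in both C1MDT and C1HDT. With constant induction 6 of the 14 were higher than after withdrawal in each fraction (medians 0.25 and 0.33, where 12.6% and 16% of all genes were called), with Btg2 (0.84 and 0.95), Ccng1 (0.40 and 0.49), Phlda3 (0.34 and 0.44), Zmat3 (0.40 and 0.36) and Mdm2 (0.31 and 0.34) in both. The other gene called was Trp53inp1 in the middle fraction (0.28) and Bbc3 in the high fraction (0.61).

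**Figure D4:**
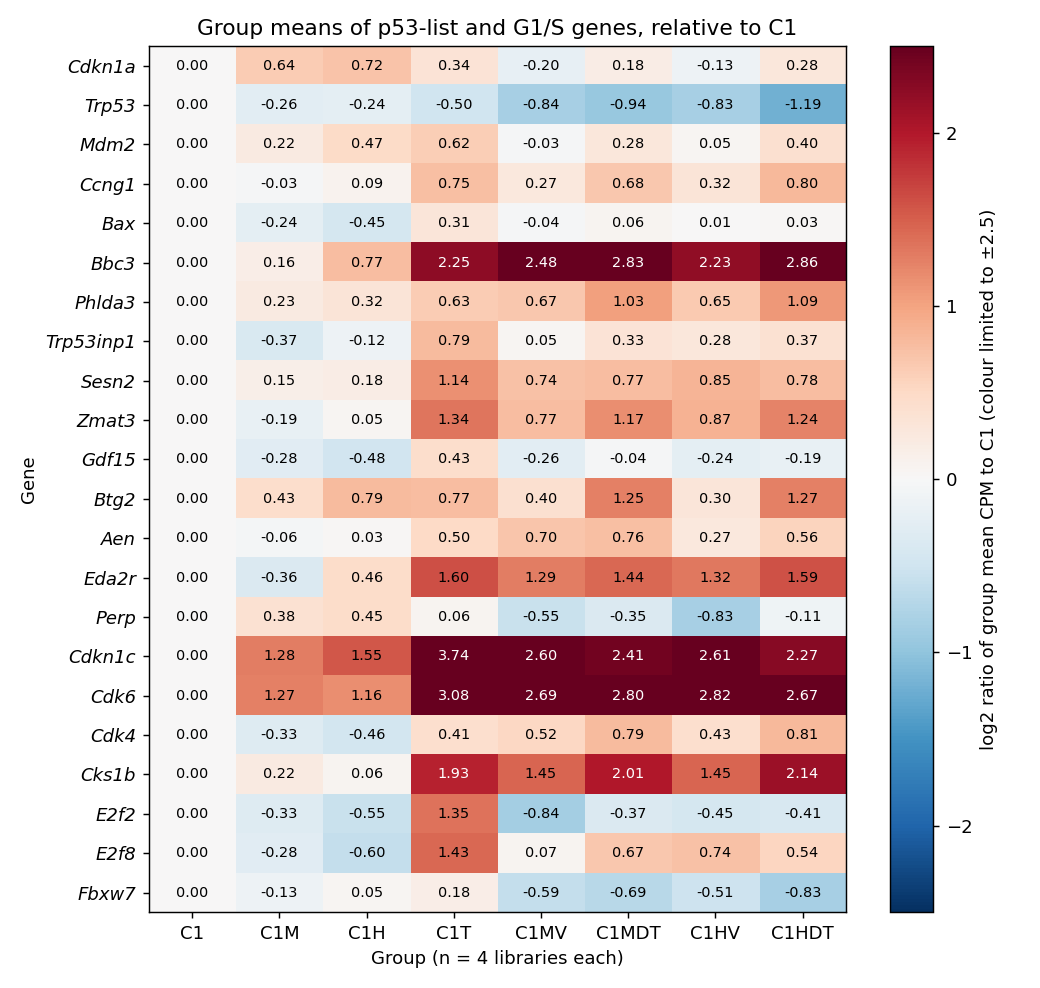
Group mean CPM of Cdkn1a, the 14 p53 genes and 7 G1/S genes (rows) in the 8 groups (columns, n = 4 libraries each), as the log2 ratio to the mean of C1, with colour limited to ±2.5. Cdkn1a is highest in C1M and C1H (0.64 and 0.72), and E2f2 is above 0 in C1T alone (1.35).

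Genes whose log2 CPM ran closest to each member over the 32 libraries are given as a description, since these libraries share groups and days. For Ccnd1 they were Gpd2 (Pearson's r = 0.984) and Lef1 (0.979), and for Ccnd2 Apela (0.979), Sulf1 (0.977) and Pou3f1 (0.976). Ccnd3 ran closest to Ezr (0.959), Pip4k2c (0.950) and Pramef12 (0.944), Ccne1 to Dnmt3a (0.952) and Phf5a (0.948), and Ccne2 to Atp5g1 (0.924), Srsf11 (0.906) and Cbs (0.898). The inhibitors had looser neighbours, Fabp5 (0.882), Tuba4a (0.818) and Cbr3 (0.811) for Cdkn1a, Dse (0.757), Crbn (0.753) and Galnt13 (0.749) for Cdkn1b, and Psd4 (0.771), Nusap1 (0.766) and H3f3b (0.758) for Cdkn2a. Cdkn2b and Cdkn2c were below the mean of 10 CPM set for this description.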

How the data were processed

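RNA of 32 libraries (8 groups, 4 libraries each) was measured by QuantSeq 3′ mRNA sequencing. The deposited values are raw counts of uniquely aligned reads per gene, which the authors made by trimming with bbduk, aligning with STAR to mm10 and counting with htseq-count on Ensembl 93 (STAR, mm10 and Ensembl 93 are also in the submitters' processing notes). The strand setting is not given in the sources used here. Rows of reads without a gene (4.72 to 11.2% without a feature, 0.234 to 0.290% ambiguous and 49.4 to 56.4% not uniquely aligned) were left out. Names were matched for 31011 of 31053 genes. Groups and replicate numbers came from the labels.

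The 15280 genes that reached 1 CPM in 4 or more libraries entered a single model of the 8 groups in edgeR 4.0.16 (R 4.3.3, TMM factors, robust quasi-likelihood F-test), with Benjamini-Hochberg adjustment over all tested genes and a threshold of 0.05. All adjusted p-values come from this fit unless another tool is named. Approximate 95% intervals come from the fitted SE. The code was tested on simulated counts. The libraries are few, and depth limits genes near the floor of 3 counts. The alternatives were other size factors, other filters, a replicate block, ComBat-Seq (sva 3.50.0), DESeq2 1.42.0, models restricted to the compared groups, and leaving out each library. Replicate numbers did not pair the libraries, as deviations of same-numbered libraries had a mean correlation of -0.0016.

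The 10 genes and all gene lists were chosen with earlier results of these data known. Besides the 10 genes, the text names per comparison up to 4 genes of the G1/S and p53 lists, those with the largest change past the threshold and no overlap between libraries, with members of counts of 5 or fewer, and the 3 genes closest in Pearson's r over log2 CPM (prior count 2) to each gene with a mean of at least 10 CPM, some of which are not reported here. Other list genes, among them Cdk4, Cul1, Mnat1, Fbxw7, Skp2, Ccnb2, E2f1, Ambra1, Trp53, Phlda3 and Gdf15 where they fall outside this rule, and repeats of a gene across groups, were named after their values were seen. Tables were read with Python 3.11.15 and pandas 2.3.3, and plots made with matplotlib 3.10.9.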

Additional observations from a re-analysis of the deposited data

Results flagged for a closer look

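In 4 of the 80 sets of 4 libraries (10 genes in 8 groups) 1 library stood far from the other 3 by Dixon's criterion at the 95% level, and chance alone gives about 1 in 20. These were Ccnd1 in C1H (14.3 CPM), Ccnd1 in C1MDT (121.7 CPM), Ccne2 in C1HV (25.6 CPM) and Cdkn2b in C1MV (2.25 CPM).

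Of 50 interaction tests examined (5 contrasts for each of 10 genes) 22 passed, each of them a difference from the C1T change from day 0 to day 4, given here as differences in log2 fold change. They share the C1 and C1T libraries. For Ccnd2 the differences were -2.12 (C1MV), -1.66 (C1MDT), -2.46 (C1HV) and -1.955 (C1HDT). In the same order they were -1.06, -0.46, -0.72 and -0.45 for Ccne1, -1.04, -1.22, -0.88 and -0.92 for Ccne2, and -1.18, -0.81, -1.19 and -0.78 for Cdkn1a. Ccnd3 differed in C1MDT (0.43), C1HV (0.29) and C1HDT (0.66), Cdkn1b in C1MV (0.37) and C1HV (0.67), and Ccnd1 in C1MV (-0.54).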

How the results depend on the processing

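The count of the 10 genes past the threshold stayed within 1.5 times its value in each of the 21 comparisons under the alternatives run, and no log2 fold change of the 210 turned its direction with a call. Ccnd1 lost its call with library sizes only in C1M vs C1 (adjusted p = 0.0559) and C1MDT vs C1MV (adjusted p = 0.0510). Under DESeq2, 4 results lost their call, Ccnd1 in C1MDT vs C1MV, Ccnd3 in C1MV vs C1T, and the interactions of Ccnd3 (C1HV) and Cdkn1b (C1MV), with adjusted p of 0.0588, 0.0700, 0.0703 and 0.0727. With the replicate block, the interaction of Ccnd3 in C1HV was 0.29 (adjusted p = 0.0548), and no other call was lost or gained. Same-numbered libraries of 10 of the 32 correlated best with their own number, so the block rests on a number only. Leaving out 1 library at a time ended the call of 15 of 99 called results in at least 1 fit and added a call to 12 others, and the cause was not tested. Over all genes, C1H vs C1M gave 271 calls and 601 when fitted on its groups only, C1HV vs C1MV 1 call, 3 without a filter and 0 on its groups only, C1HDT vs C1MDT 0 calls and 1 with ComBat-Seq or on its groups only, and the test of duration between the fractions 0 calls, 11 without a filter and 20 in DESeq2. Depth limits Cdkn2b and Cdkn2c, which were left out by the filter of 1 CPM in all libraries, so that 168 results were compared there.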
